A study of Danio rerio with 36 samples.

Results

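Gluconeogenesis was described here through 5 genes of the zebrafish, chosen by gene name from the 30221 rows of the deposited table. They were pck1 and pck2, which encode phosphoenolpyruvate carboxykinases, and fbp1a, fbp1b and fbp2, which encode fructose-bisphosphatases. All 5 were among the 20120 genes that passed the filter on low values, which asked for at least 1 FPKM (fragment counts scaled to transcript length and library size) in at least 3 libraries.

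Gluconeogenesis makes glucose from lactate, glycerol and amino acids, in vertebrates mainly in liver and kidney. Phosphoenolpyruvate carboxykinase turns oxaloacetate into phosphoenolpyruvate, with pck1 coding for the cytosolic and pck2 for the mitochondrial form. Fructose-bisphosphatase removes a phosphate from fructose 1,6-bisphosphate and so runs against phosphofructokinase of glycolysis. In mammals FBP1 is the liver and kidney form and FBP2 the muscle form, and transcription of PCK1 is raised by glucagon and glucocorticoids and lowered by insulin.

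By its title, the study used caudal fin amputation in larvae to model how diabetes affects inflammation and regeneration. Whole wild-type larvae were profiled by paired-end RNA sequencing after 14 days in 1 of 3 media, begun 6 h after fertilization: regular medium, or medium with 130 mM or 222 mM D-glucose. In each medium 1 group was left uncut, and in the others the caudal fin was cut off where the spinal cord ends and RNA was taken 3, 24 or 48 h later, with the larvae back in their medium. Each of the 12 groups had 3 libraries. The age of the uncut larvae at collection is not given, so amputation and time cannot be told apart, and no group with another osmolyte in place of glucose was analysed here. The labels give 222 mM for the higher dose, and the design text once gives nM.

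Total counts ran from 47904694 to 67514889 per library. Within their groups 4 libraries stood apart, correlating with the others by over 0.02 less (mean r) than the others did with each other. They were replicate 3 of uncut larvae in regular medium, replicate 3 of uncut larvae in 222 mM, replicate 1 at 3 h in regular medium and replicate 1 at 24 h in 130 mM. Calls of the 5 genes that change without these 4 are given both ways, and this alternative was picked with the data in view. Where none of the 4 is in the groups compared, it compares the same libraries. The estimate of spread shared over all groups then differs, so a smaller p there is no separate support. Nothing in the labels ties a replicate to its own animals, so p-values measure the spread between these libraries, which may be technical. Values are given as CPM (counts scaled to library size) in the order of replicates 1, 2 and 3, and means are ± SD (n = 3). A log2 value is a log2 fold change ± its standard error with 3 libraries per group. A gene rose or fell where p from edgeR's quasi-likelihood test, adjusted over all 20120 genes, lay under 0.05. In whole larvae, fewer cells of a type and less RNA per cell cannot be told apart.

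On the GRCz11 build, pck1 (ENSDARG00000013522, chromosome 6, 60055168 to 60062097, plus strand) and pck2 (ENSDARG00000020956, chromosome 24, 12920019 to 12938922, minus strand) lie on different chromosomes. The gene for fbp1b (ENSDARG00000020364, chromosome 5, 35458190 to 35462126, plus strand) lies apart on chromosome 5 from the neighbours fbp2 (ENSDARG00000012366, chromosome 5, 44814064 to 44829719, minus strand) and fbp1a (ENSDARG00000021366, chromosome 5, 44833313 to 44843738, minus strand), which are 3593 bases apart on one strand. An opposite-strand gene, CT025745, spans fbp2 and touches fbp1a, with at most 13 counts in a library. That is at most 5.43% of the count of fbp2 and 0.465% of that of fbp1a. The gene erlin2 overlaps fbp1b on the same strand with at most 9 counts. Reads of paralogs can be split between copies in a way the deposited counts do not show.

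Per transcript length, pck1 was the most abundant of the 5, with a mean of 214 FPKM over all 36 libraries. Next came fbp1b at 89.2 FPKM, pck2 at 37.7 FPKM and fbp1a at 34.9 FPKM. The fbp2 level was 2.71 FPKM and rested on 77 to 811 counts per library, against 2347 or more for fbp1a. Between the highest and the lowest group mean in CPM the span was 6.75-fold for pck1, 6.44-fold for fbp2, 3.45-fold for pck2, 2.30-fold for fbp1b and 2.19-fold for fbp1a. The plot of CPM by library shows that the 5 genes did not share 1 time course.

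**Figure D1:**
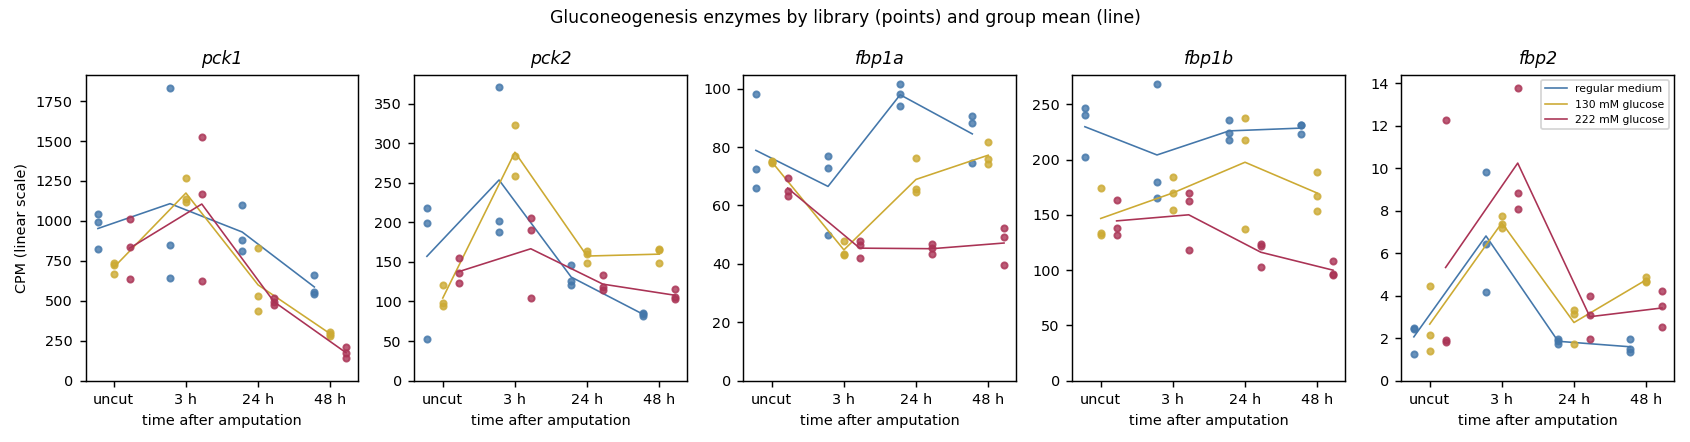
CPM on a linear axis from 0 for each of the 36 libraries (points) and group means (lines), by time after amputation (x axis) and medium (colour), in 1 panel per gene. Levels of pck1 were lowest at 48 h in 222 mM glucose at 174 ± 34.7 CPM, and fbp2 was highest at 3 h in all 3 media.

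The first question was whether the enzymes differed between media at the same time point. Over the 12 comparisons of 2 media, 18 of 60 tests of the 5 genes passed, or 30% of them, against 15.6% over all genes tested. Of these, 16 were lower with more glucose, against 8.43% of tests over all genes, and the exceptions were pck2 and fbp2 at 48 h in 130 mM. The genes contributed unequally, with 7 passed tests for fbp1a, 6 for fbp1b, 3 for pck1 and 1 each for pck2 and fbp2. The 3 pairs of media at a time share their groups, so these tests are not independent. By the criterion of the series text, an unadjusted p under 0.05 and a log2 change over 1 either way, 7 of 60 passed, against 5.57% over all genes. In uncut larvae 1 of 5 passed in 130 mM against regular medium (2.63% of all genes) and 1 of 5 in 222 mM (12.6%), fbp1b in both, which fell. No member passed in edgeR between the glucose levels (7.63% of all genes), where 0 had an unadjusted p under 0.05 and DESeq2 and limma called 0. At 3 h 1 of 5 passed in 130 mM (9.5%) and 1 of 5 in 222 mM (23.9%), fbp1a in both, which fell. Between the glucose levels at 3 h none passed in edgeR (12.8%). There pck2 had an unadjusted p under 0.05 and was the 1 gene that DESeq2 and limma on FPKM each called.

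At 24 h 1 of 5 passed in 130 mM against regular medium (7.03% of all genes), 3 of 5 in 222 mM (34.1%) and 2 of 5 in 222 mM against 130 mM (24.3%), all lower with more glucose. At 48 h, 3 of 5 passed in 130 mM (19.9%), with pck1 lower and pck2 and fbp2 higher. In 222 mM pck1, fbp1a and fbp1b fell, 3 of 5 (16.5%), and fbp1a and fbp1b were lower than in 130 mM, 2 of 5 (15.8%). The median log2 fold change of the 5 genes in 222 mM against regular medium was -0.91 against 0.01 over all genes at 24 h and -0.84 against 0.00 at 48 h. Without the 4 libraries apart 29 of 60 passed (48.3%), against 29.4% over all genes.

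**Figure D2:**
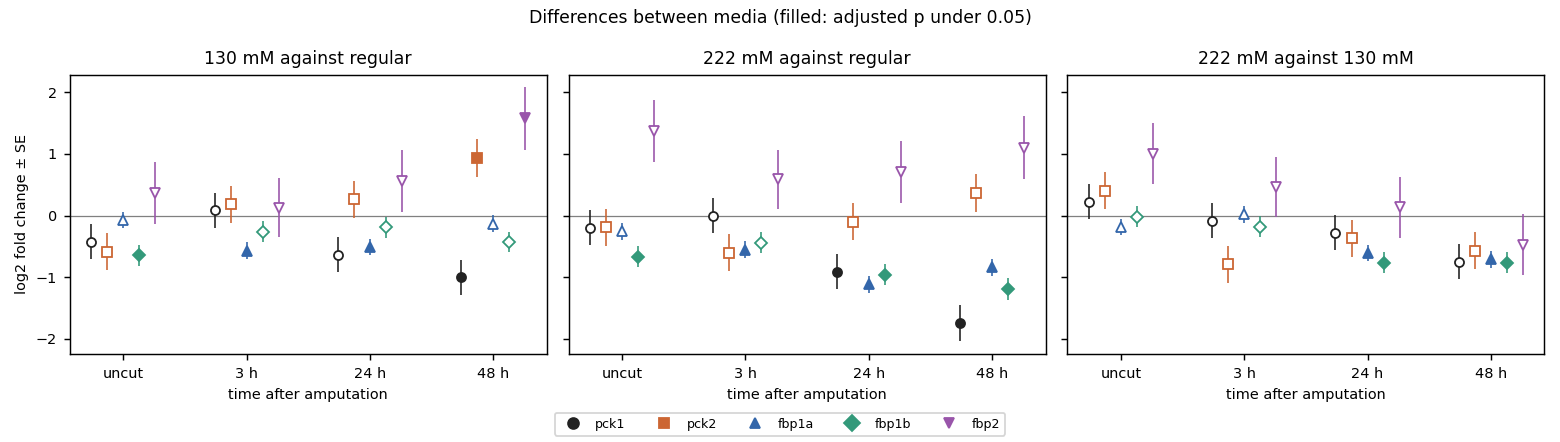
Log2 fold change ± SE of the 5 genes (symbols) between media at each time (x axis), in 1 panel per pair of media, filled where the adjusted p lay under 0.05. At 48 h in 222 mM against regular medium pck1, fbp1a and fbp1b lie between -1.75 and -0.84, and pck2 and fbp2 lie above 0 without passing.

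The second question was how the enzymes moved after amputation within a medium. Of 45 tests 12 passed (26.7%), against 12.1% over all genes, with 4 higher and 8 lower than in uncut larvae (5.72% of tests over all genes were lower). By the criterion of the series text 5 of 45 passed, against 4.42% over all genes. In regular medium 1 of 5 passed at 3 h (15.1% of all genes), fbp2, which rose, and 1 of 5 at 48 h (14.5%), pck2, which fell. At 24 h none passed in edgeR (9.78%), DESeq2 and limma called 0, and fbp1a alone had an unadjusted p under 0.05. In 130 mM, 4 of 5 passed at 3 h (38.2%), with pck1, pck2 and fbp2 higher and fbp1a lower. None passed there in edgeR at 24 h (2.67%), where fbp1b alone had an unadjusted p under 0.05 and DESeq2 and limma called 0, and pck1 fell at 48 h, 1 of 5 (6.14%). In 222 mM fbp1a fell at 3 h, 1 of 5 (0.895%), and at 24 h, 1 of 5 (4.6%). At 48 h pck1, fbp1a and fbp1b fell, 3 of 5 (17.2%). The 3 times of a medium share its uncut group. Without the 4 libraries apart 23 of 45 passed (51.1%), against 26.2% over all genes.

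**Figure D3:**
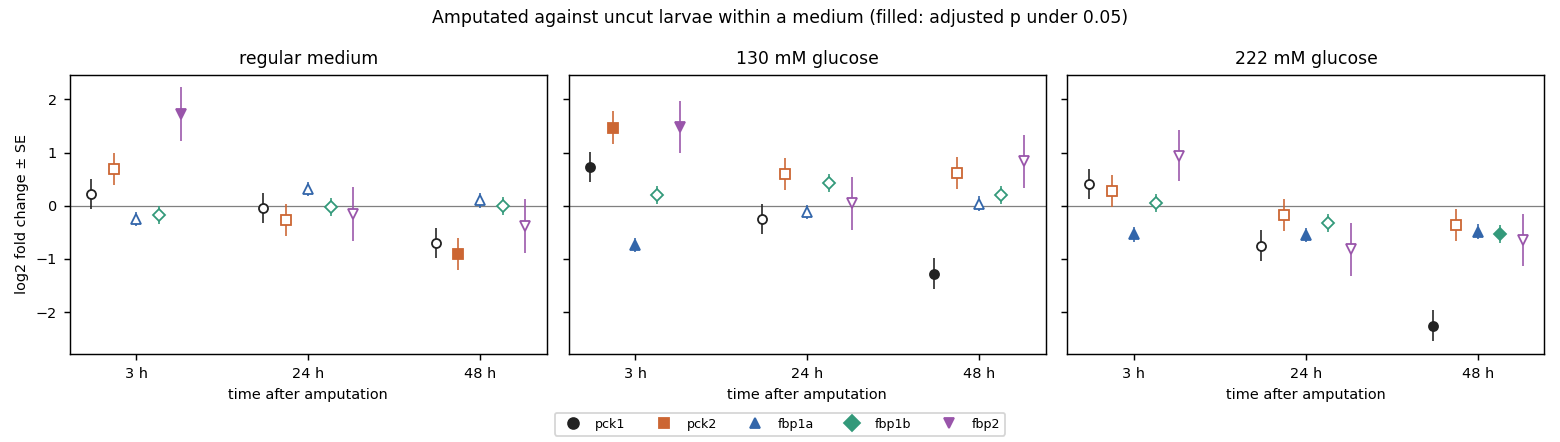
Log2 fold change ± SE of the 5 genes (symbols) in amputated against uncut larvae at 3, 24 and 48 h (x axis), in 1 panel per medium, filled where the adjusted p lay under 0.05. For pck1 the 48 h values go from -0.70 in regular medium to -2.25 in 222 mM.

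The cytosolic enzyme gene pck1 fell in both glucose media by 48 h after amputation. At 48 h its libraries had 542, 555 and 661 CPM in regular medium, 281, 295 and 304 CPM in 130 mM and 173, 209 and 139.8 CPM in 222 mM. The 3 media did not overlap, and their order followed the dose. The level in 130 mM was 2.0-fold below that in regular medium (log2 -1.0 ± 0.29, adjusted p = 0.015), and in 222 mM it was 3.37-fold below (log2 -1.75 ± 0.29, adjusted p = 0.00016). The difference between the glucose levels did not pass (log2 -0.75 ± 0.29, adjusted p = 0.072), though it did in DESeq2 (adjusted p = 0.030). It also passed without the 4 libraries apart (adjusted p = 0.0069). None of these is in the groups compared, so the same libraries were tested with another shared estimate of spread. The fall in 130 mM did not pass without replicate 3 of regular medium or replicate 1 of 130 mM, with adjusted p up to 0.060 and log2 from -1.05 to -0.91. The fall in 222 mM passed without any of the 6 libraries.

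At 24 h pck1 stood at 1100.3, 811 and 879.6 CPM in regular medium, 830.0, 435 and 532 CPM in 130 mM and 472, 491 and 519 CPM in 222 mM. The libraries in 222 mM were all below those in regular medium, and those in 130 mM overlapped both groups. The fall in 222 mM passed (log2 -0.91 ± 0.29, adjusted p = 0.014), but not without replicate 1 of regular medium (adjusted p = 0.066). The value for 130 mM did not pass (log2 -0.63 ± 0.28, adjusted p = 0.17), and passed without the libraries apart (log2 -0.94, adjusted p = 0.0098). Replicate 1, the one left out, was the highest in 130 mM.

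No comparison of media passed for pck1 in uncut larvae or at 3 h. Uncut larvae had 993, 1042 and 822 CPM in regular medium, 724, 668 and 733 CPM in 130 mM and 1014, 838 and 635 CPM in 222 mM. At 3 h the values were 1832, 850.0 and 642 CPM, 1116, 1137 and 1269.8 CPM and 1169.5, 1526 and 621 CPM in that order. The 3 h libraries of regular medium spread from 642 to 1832 CPM, with the highest value in replicate 1, 1 of the libraries apart. Without those libraries pck1 was higher in 130 mM than in regular medium at 3 h (log2 0.65, adjusted p = 0.031). The smallest adjusted p among these 6 comparisons was 0.47 with all libraries.

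Against uncut larvae pck1 fell by 48 h in 222 mM (log2 -2.25 ± 0.30, adjusted p = 9.1e-06), which is 4.76-fold, and in 130 mM (log2 -1.27 ± 0.29, adjusted p = 0.010). In regular medium all 48 h libraries also lay below the uncut ones, but the difference did not pass (log2 -0.70 ± 0.28, adjusted p = 0.096). It passed without the libraries apart (log2 -0.80, adjusted p = 0.0064) and in DESeq2 (adjusted p = 0.048). At 24 h the value in 222 mM did not pass (log2 -0.75 ± 0.28, adjusted p = 0.14), and passed without the libraries apart (log2 -0.91, adjusted p = 0.0061). The rise at 3 h in 130 mM (log2 0.73 ± 0.28, adjusted p = 0.044) was lost when any 1 of its 6 libraries was left out, with adjusted p up to 0.11. In order of group means, the 3 groups at 3 h were highest and overlapped, and the 8 highest groups each overlapped with the next. The last 3 steps down, from regular medium at 48 h to 222 mM at 24 h, then to 130 mM and 222 mM at 48 h, had no overlap.

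The mitochondrial enzyme gene pck2 rose early after amputation in 130 mM. Its libraries went from 121, 93.9 and 97.7 CPM in uncut larvae to 323, 259 and 284 CPM at 3 h, a rise of 2.77-fold (log2 1.47 ± 0.31, adjusted p = 0.00063). All 3 h libraries lay above the uncut ones, and the call held without any single library. By 24 h the values were 148, 164 and 160.2 CPM, still above all uncut libraries though not past the test (log2 0.59 ± 0.30, adjusted p = 0.27), which they passed without the libraries apart (log2 0.64, adjusted p = 0.0075). At 48 h they did not pass against uncut larvae either (log2 0.62 ± 0.30, adjusted p = 0.22), and passed without the libraries apart (adjusted p = 0.0039). In 222 mM they were 136, 123 and 155 CPM uncut and 105, 205 and 190.0 CPM at 3 h, with overlap and no call (log2 0.28 ± 0.30, adjusted p = 0.73). Between media at 3 h pck2 was lower in 222 mM than in 130 mM without the libraries apart (adjusted p = 0.00024), a difference that did not pass with all libraries (log2 -0.79 ± 0.30, adjusted p = 0.081). In 130 mM it was higher than in regular medium without them (log2 0.57, adjusted p = 0.010) and did not pass with them (log2 0.19 ± 0.30, adjusted p = 0.74).

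In regular medium pck2 had 219, 199.7 and 52.8 CPM uncut and 371, 202 and 188 CPM at 3 h. Replicate 3 of the uncut group, a library apart, was the lowest of all 36, and replicate 1 at 3 h, also apart, was the highest. The difference at 3 h did not pass (log2 0.69 ± 0.30, adjusted p = 0.12), nor without the libraries apart (log2 -0.10, adjusted p = 0.73), but did without replicate 1 of the uncut group (log2 1.01, adjusted p = 0.040). At 24 and 48 h the values were 146, 126 and 121 CPM and 83.9, 85.4 and 81.8 CPM. The 24 h value did not pass (log2 -0.26 ± 0.30, adjusted p = 0.61), and passed without the libraries apart (log2 -0.68, adjusted p = 0.0028). The fall by 48 h passed (log2 -0.91 ± 0.30, adjusted p = 0.043) and was lost without 5 of the 6 libraries. It was also lost in limma, without the filter on low values, with only the libraries compared in the fit and with the replicate number as a block (adjusted p = 0.056). Without the libraries apart it was larger (log2 -1.32, adjusted p = 4.4e-07). Without those libraries uncut larvae also had less pck2 in 130 mM (log2 -1.0, adjusted p = 4.5e-05) and in 222 mM (log2 -0.70, adjusted p = 0.0048) than in regular medium, differences that did not pass with all libraries (adjusted p = 0.32 and 0.75).

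At 48 h pck2 rose in 130 mM, where pck1 fell. It had 149, 165 and 166 CPM in 130 mM and 106, 103 and 115 CPM in 222 mM, and every library of both groups was above those of regular medium. The rise in 130 mM passed (log2 0.93 ± 0.30, adjusted p = 0.031), but not when any 1 of the 6 libraries was left out, with adjusted p up to 0.089. Without the libraries apart the adjusted p was 2.5e-05. None of these is in the groups compared, so the same libraries were tested with another shared estimate of spread. The value in 222 mM did not pass (log2 0.37 ± 0.30, adjusted p = 0.45). With the libraries apart left out, pck2 was lower in 222 mM than in 130 mM (log2 -0.57, adjusted p = 0.0047), which did not pass with all libraries (adjusted p = 0.21). At 24 h in 222 mM, with 114, 133 and 118 CPM, it overlapped regular medium. The group order of pck2 means ran from 130 mM at 3 h to regular medium at 48 h, and all neighbours overlapped except the last pair, uncut 130 mM and regular medium at 48 h.

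The FPKM ratio of pck1 to pck2 within a library restates the levels above, since it is made from the same libraries. At 48 h in 222 mM against regular medium pck1 passed and pck2 did not. In regular medium the ratio was 7.63, 7.67 and 9.53 at 48 h. It was 2.23, 2.11 and 2.15 in 130 mM and 1.94, 2.40 and 1.43 in 222 mM. Both glucose groups overlapped each other and lay below every library of regular medium. In uncut larvae the ratio was 5.35, 6.15 and 18.3 in regular medium, 7.03, 8.39 and 8.85 in 130 mM and 8.81, 8.06 and 4.85 in 222 mM. The highest of these, replicate 3 of regular medium, is the library with the lowest pck2. At 24 h the ratio was 8.91, 7.61 and 8.55 in regular medium. It was 6.61, 3.13 and 3.92 in 130 mM and 4.87, 4.34 and 5.19 in 222 mM, also below every library of regular medium. At 3 h regular medium itself had 5.82, 4.95 and 4.04. It overlapped with 130 mM (4.07, 5.18 and 5.27) and 222 mM (13.1, 8.78 and 3.85). The ratios were not tested.

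**Figure D4:**
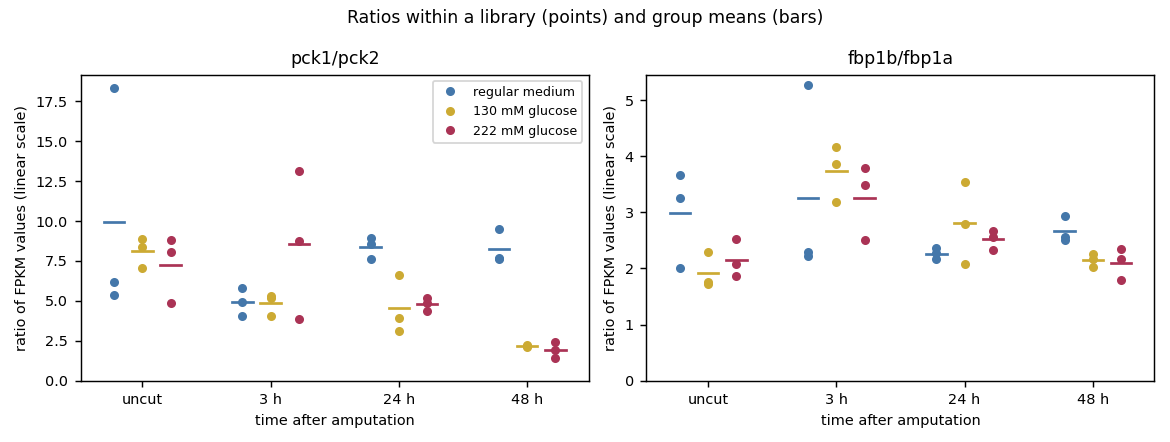
Ratios of FPKM values within each library (points, linear axis from 0) with group means (bars), for pck1 over pck2 (left) and fbp1b over fbp1a (right), by time after amputation and medium (colour). The pck1 to pck2 ratio is near 2.16 in 130 mM and 1.92 in 222 mM at 48 h, against 8.27 in regular medium.

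Of the fructose-bisphosphatase genes, fbp1a was lower in 222 mM than in regular medium at all 3 times after amputation. At 24 h its libraries had 98.1, 94.0 and 102 CPM in regular medium, 64.7, 76.3 and 65.8 CPM in 130 mM and 45.5, 46.7 and 43.4 CPM in 222 mM. The 3 media did not overlap and stood in order of dose. The level in 222 mM was 2.17-fold below regular medium (log2 -1.12 ± 0.13, adjusted p = 2.9e-07) and also below 130 mM (log2 -0.61 ± 0.13, adjusted p = 0.0012), and both calls held without any single library. The fall in 130 mM (log2 -0.51 ± 0.13, adjusted p = 0.019) was lost without 4 of its 6 libraries, with log2 from -0.59 to -0.46. It passed without the libraries apart (adjusted p = 0.0031).

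At 48 h fbp1a had 88.2, 90.6 and 74.7 CPM in regular medium, 74.2, 75.8 and 81.7 CPM in 130 mM and 39.8, 52.4 and 49.2 CPM in 222 mM. The 222 mM libraries lay below all others, while regular medium and 130 mM overlapped. The fall in 222 mM passed against regular medium (log2 -0.84 ± 0.13, adjusted p = 6.4e-05) and against 130 mM (log2 -0.71 ± 0.13, adjusted p = 0.00061), also without any single library, and 130 mM against regular medium did not pass (log2 -0.13 ± 0.13, adjusted p = 0.52).

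At 3 h the values of fbp1a were 49.8, 76.8 and 72.9 CPM in regular medium, 43.1, 47.7 and 43.5 CPM in 130 mM and 46.3, 47.7 and 42.1 CPM in 222 mM. The glucose groups overlapped each other and were below regular medium, whose lowest library was replicate 1, a library apart. Both falls passed, in 130 mM (log2 -0.57 ± 0.13, adjusted p = 0.0080) and in 222 mM (log2 -0.55 ± 0.13, adjusted p = 0.0035). Neither passed when only the libraries compared were fitted (adjusted p = 0.12 and 0.12), and both were larger without the libraries apart (log2 -0.74 and -0.72). The fall in 130 mM was also lost without replicate 2 or 3 of regular medium.

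Uncut larvae showed no call for fbp1a between media. They had 66.0, 72.4 and 98.2 CPM in regular medium, 74.7, 74.8 and 75.4 CPM in 130 mM and 69.4, 65.1 and 63.4 CPM in 222 mM. The 130 mM libraries were the most alike, those of 222 mM lay below them, and replicate 3 of regular medium, a library apart, was the highest. Against uncut larvae fbp1a fell at 3 h in 130 mM (log2 -0.74 ± 0.13, adjusted p = 0.00013), which held without any single library, and returned to overlap with uncut larvae at 24 h (log2 -0.12 ± 0.13, adjusted p = 0.63). In 222 mM it fell at 3 h (log2 -0.54 ± 0.13, adjusted p = 0.045), 24 h (log2 -0.55 ± 0.13, adjusted p = 0.014) and 48 h (log2 -0.48 ± 0.13, adjusted p = 0.012). Each of these 3 calls was lost without at least 2 single libraries and in limma on FPKM. Those at 3 and 24 h were also lost with only the libraries compared in the fit. All 3 passed without the libraries apart, with log2 -0.57, -0.57 and -0.51. In regular medium the values at 3, 24 and 48 h did not pass, with the largest at 24 h (log2 0.31 ± 0.13, adjusted p = 0.13). Fits without the libraries apart gave fbp1a as higher than in uncut larvae at 24 h (log2 0.50, adjusted p = 0.00048) and at 48 h (log2 0.29, adjusted p = 0.025, against log2 0.10 ± 0.13, adjusted p = 0.66 with all libraries).

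In the order of the fbp1a group means, each group was compared with its neighbour. The 4 lowest groups, 130 mM at 3 h and 222 mM at 3, 24 and 48 h, each overlapped with the next among them. The highest of them, 222 mM at 48 h, did not overlap with the group above, uncut larvae in 222 mM. It did overlap with regular medium at 3 h, a group with a higher mean, whose replicate 1, a library apart, had 49.8 CPM. The highest group, regular medium at 24 h, did not overlap with the second, regular medium at 48 h. All other neighbours overlapped.

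The second fbp1 gene, fbp1b, was lower in glucose in uncut larvae as well. Uncut larvae had 247, 240.4 and 202 CPM in regular medium, 174, 134 and 132 CPM in 130 mM and 132, 138 and 163 CPM in 222 mM. Both glucose groups lay below every library of regular medium and overlapped each other. The fall in 222 mM (log2 -0.67 ± 0.17, adjusted p = 0.0083) held without any single library, and the fall in 130 mM (log2 -0.65 ± 0.17, adjusted p = 0.035) was lost without 4 of the 6. With only the libraries compared in the fit the adjusted p was 0.16 in 222 mM and 0.23 in 130 mM.

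At 24 h fbp1b had 236, 218 and 224 CPM in regular medium, 137, 218 and 238 CPM in 130 mM and 124, 122 and 103 CPM in 222 mM. The 222 mM libraries were the lowest, and 130 mM overlapped regular medium, with replicate 1, a library apart, the lowest of its group. The level in 222 mM fell against regular medium (log2 -0.96 ± 0.17, adjusted p = 7.2e-05) and against 130 mM (log2 -0.77 ± 0.17, adjusted p = 0.0014), where it was -0.97 on the log2 scale without the libraries apart. At 48 h the values were 231, 231 and 223 CPM, 154, 167 and 188 CPM and 95.1, 96.1 and 108 CPM in the same order. No 2 of these groups overlapped. The level in 222 mM was 2.29-fold below regular medium (log2 -1.19 ± 0.17, adjusted p = 1.7e-05) and below 130 mM (log2 -0.76 ± 0.17, adjusted p = 0.0028). The 4 calls for 222 mM at 24 and 48 h held without any single library. The lower level in 130 mM did not pass (log2 -0.43 ± 0.17, adjusted p = 0.071), and passed without the libraries apart (adjusted p = 0.0037) and in limma on FPKM.

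At 3 h fbp1b had 268, 179 and 165 CPM in regular medium, 170.1, 155 and 185 CPM in 130 mM and 118, 169 and 163 CPM in 222 mM. The groups overlapped and no comparison of media passed in edgeR, with the nearest in 222 mM against regular medium (log2 -0.44 ± 0.17, adjusted p = 0.055), which DESeq2 and limma called and which also passed without replicate 2 or 3 of regular medium. Against uncut larvae fbp1b fell in 222 mM by 48 h (log2 -0.53 ± 0.17, adjusted p = 0.029), a call lost without 3 of the 6 libraries. In regular medium at 3 h it did not pass (log2 -0.17 ± 0.17, adjusted p = 0.53), and was lower without the libraries apart (log2 -0.50, adjusted p = 0.0088). In 130 mM at 24 h it did not pass either (log2 0.43 ± 0.17, adjusted p = 0.15), and was higher without them (log2 0.63, adjusted p = 0.00060). In regular medium the means at 24 and 48 h were 226 ± 9.10 and 228 ± 4.69 CPM, against 229.7 ± 24.3 CPM uncut. The 4 highest group means were the 4 groups of regular medium. In order of means the 10 highest groups each overlapped with the neighbour among them. The lowest pair, 222 mM at 24 and 48 h, overlapped each other, and 24 h did not overlap with the group above it, uncut larvae in 222 mM. It did overlap with 222 mM at 3 h, a group with a higher mean, whose replicate 1 had 118 CPM.

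Levels of fbp1b exceeded those of fbp1a per transcript length in every group mean. The FPKM ratio of fbp1b to fbp1a in a library was 3.67, 3.26 and 2.02 in uncut larvae in regular medium, 2.29, 1.75 and 1.72 in 130 mM and 1.87, 2.08 and 2.53 in 222 mM. At 3 h it was 5.28, 2.29 and 2.22, 3.87, 3.18 and 4.17 and 2.50, 3.48 and 3.79. In 130 mM all 3 h libraries were above the uncut ones, and in the other media the times overlapped. The lowest ratio among these 18 libraries was in replicate 3 of uncut larvae in 130 mM, and the highest in replicate 1 at 3 h in regular medium, a library apart.

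The least abundant gene, fbp2, rose at 3 h in regular medium and in 130 mM. In regular medium its libraries went from 2.42, 2.49 and 1.26 CPM uncut to 9.81, 4.16 and 6.44 CPM at 3 h (log2 1.73 ± 0.50, adjusted p = 0.021). In 130 mM they went from 2.12, 1.41 and 4.43 CPM to 7.36, 7.17 and 7.73 CPM (log2 1.48 ± 0.50, adjusted p = 0.020). In both media all 3 h libraries lay above the uncut ones. In regular medium log2 was 1.11 without the libraries apart (adjusted p = 0.030), and the call was lost without replicate 3 of the uncut group or replicate 1 at 3 h. It was also lost with only the libraries compared in the fit. In 130 mM log2 was 2.07 without replicate 3 of the uncut group, and the call was lost without replicate 1 or 2 of it.

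In 222 mM fbp2 had 1.82, 1.90 and 12.2 CPM uncut and 8.09, 13.8 and 8.83 CPM at 3 h. Replicate 3 of the uncut group, a library apart, was above 2 of the 3 h libraries, and the other uncut libraries were below all of them. The difference did not pass (log2 0.94 ± 0.49, adjusted p = 0.38), and passed without the libraries apart (log2 2.46, adjusted p = 4.6e-05). Between media at 3 h fbp2 in 222 mM did not pass against regular medium (log2 0.59 ± 0.48, adjusted p = 0.39), and was higher without the libraries apart (log2 0.95, adjusted p = 0.027). The same replicate sets the comparison of media in uncut larvae, where log2 in 222 mM against regular medium was 1.37 with it (adjusted p = 0.072, and 0.024 in DESeq2) and -0.14 without it. Without replicate 1 or 2 of 222 mM, which leaves that replicate and 1 other, it passed (adjusted p = 0.023 and 0.017). Against 130 mM it was 1.0 with and -0.51 without it.

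At 24 h fbp2 had 1.88, 1.73 and 1.94 CPM in regular medium, 3.32, 3.15 and 1.72 CPM in 130 mM and 1.96, 3.98 and 3.07 CPM in 222 mM, with no call. At 48 h the values were 1.35, 1.94 and 1.48 CPM, 4.68, 4.65 and 4.89 CPM and 2.52, 3.53 and 4.20 CPM. Both glucose groups lay above regular medium. The rise in 130 mM passed (log2 1.58 ± 0.51, adjusted p = 0.029), but not when any 1 of the 6 libraries was left out (adjusted p up to 0.098), and that in 222 mM did not (log2 1.1 ± 0.51, adjusted p = 0.14). Both passed without the libraries apart (adjusted p = 0.00024 and 0.0075), as did the value at 48 h in 130 mM against uncut larvae (adjusted p = 0.047, against 0.32 with all libraries). The 3 groups at 3 h had the highest means, with no overlap between 222 mM and 130 mM. Below them 130 mM and 222 mM at 48 h did not overlap, and the other neighbours did.

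Whether the 3 amputation responses together differed between 2 media was tested with 1 F test per gene. Of 15 tests 4 passed (26.7%), against 19.2% over all genes. Between 222 mM and regular medium 2 of 5 passed (15.3% of all genes), pck1 (adjusted p = 0.012) and fbp1a (adjusted p = 0.011). Between 222 mM and 130 mM 2 of 5 passed (24.4%), fbp1a (adjusted p = 0.013) and fbp1b (adjusted p = 0.028). Between 130 mM and regular medium none passed in edgeR (17.9%) or limma, while pck2 and fbp1a had an unadjusted p under 0.05 and DESeq2 called both. With the 4 libraries apart left out 13 of 15 passed (86.7%), against 48.3% over all genes. The tests that did not pass then were fbp2 between 222 mM and each other medium. In limma on FPKM 1 passed, pck1 in 222 mM against regular medium.

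Other genes of the pathway were counted in lists. Shares over all genes beside them count both directions and are from the fit with all libraries. Without the libraries apart the share over all genes was higher. It went from 15.6% to 29.4% over the 12 comparisons of media, and from 12.1% to 26.2% over the 9 against uncut larvae. The first list held 12 tested genes for other gluconeogenic steps, among them those of pyruvate carboxylase, glucose-6-phosphatase and the glucose-6-phosphate transporter. At 48 h 5 of 12 rose and 0 fell in 130 mM against regular medium, with a list median of log2 0.49 against -0.02 over all genes, of which 19.9% passed. Rises included the transporter gene slc37a4b (log2 0.69 ± 0.14). In 222 mM at 48 h 3 of 12 rose and 2 fell (median 0.27 against 0.00, with 16.5% of all genes past the test), with slc37a4b higher (log2 1.1 ± 0.14) and pcxb lower (log2 -0.79 ± 0.15). At 24 h 2 of 12 rose in 130 mM and 0 fell, and in 222 mM 3 rose and 3 fell, where 7.03% and 34.1% of all genes passed. Without the libraries apart 7 rose and 0 fell at 48 h in 130 mM and 4 rose and 3 fell in 222 mM, and at 24 h 3 rose and 1 fell in 130 mM and 4 rose and 3 fell in 222 mM. At 48 h in 130 mM 3 passed without replicate 2 of 130 mM and without replicate 1 or 3 of regular medium, and at 24 h in 130 mM 1 passed without any 1 of 5 libraries.

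The fall of pcxb, a pyruvate carboxylase gene for the step just before phosphoenolpyruvate carboxykinase, was larger at 24 h in 222 mM than at the other times. There it had 16.0, 13.9 and 14.2 CPM, against 61.0, 51.5 and 50.6 CPM in regular medium and 38.3, 43.0 and 42.4 CPM in 130 mM. The 222 mM libraries lay far below the other groups (log2 -1.89 ± 0.16 against regular medium and log2 -1.49 ± 0.15 against 130 mM). In uncut larvae pcxb was also lower in 222 mM (log2 -0.60 ± 0.15), a call lost without replicate 1 of regular medium. The last enzyme of the pathway, glucose-6-phosphatase, rose at 3 h in 130 mM, when g6pc1a.1 (log2 1.70 ± 0.26) and its tandem copy g6pc1a.2 (log2 2.02 ± 0.42) were both above uncut larvae. The split of reads between these copies is uncertain. The libraries of g6pc1a.2 went from 189.6, 139 and 135 CPM to 577, 631 and 674 CPM. In that comparison 4 of 12 genes of the list rose and 1 fell, where 38.2% of all genes passed. The counts were 4 and 2 in regular medium (15.1% of all genes passed). In 222 mM, where 0.895% of all genes passed with all libraries, they were 0 and 0 in edgeR and in DESeq2. Without the libraries apart 4 rose. In that setting 26.2% of tests over all genes passed in the 9 comparisons against uncut larvae, and the share for this comparison alone is not given here.

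Genes for the glycolytic steps that run against these enzymes, 19 tested, were counted in the same way. At 48 h 8 of 19 rose and 3 fell in 130 mM (median 0.17 against -0.02 over all genes), and 8 rose and 0 fell in 222 mM (median 0.44 against 0.00). Of all genes 19.9% passed in 130 mM and 16.5% in 222 mM. Leaving out the libraries apart, 9 rose and 3 fell in 130 mM and 10 rose and 2 fell in 222 mM. The liver pyruvate kinase gene pklr, whose enzyme consumes phosphoenolpyruvate, had 283, 312 and 246 CPM in regular medium, 1420.4, 1680.2 and 1709 CPM in 130 mM and 783, 837 and 989.7 CPM in 222 mM. No 2 of these groups overlapped, and 130 mM was the highest (log2 2.52 ± 0.32 against regular medium and log2 1.64 ± 0.31 for 222 mM). Glucokinase, gck, the liver hexokinase, had 0.542, 1.11 and 1.38 CPM, 117, 119 and 124 CPM and 60.8, 73.8 and 77.3 CPM in the same order. No library of regular medium came near the glucose groups (log2 6.90 ± 1.08 and log2 6.13 ± 1.05).

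At 24 h 4 of 19 opposing genes rose and 0 fell in 130 mM, and 5 rose and 1 fell in 222 mM. Of all genes 7.03% and 34.1% passed there, so the count in 222 mM was near that over all genes. When the libraries apart were left out, 6 rose and 0 fell in 130 mM and 8 rose and 2 fell in 222 mM. In 130 mM they were led by gck (log2 5.88 ± 1.02), the hexokinase-like hkdc1 (log2 1.40 ± 0.27), pklr (log2 1.5 ± 0.31) and hk1 (log2 0.52 ± 0.13), the last of which did not pass without the libraries apart. In uncut larvae 5 rose and 0 fell in 222 mM (12.6% of all genes passed), among them pklr (log2 1.51 ± 0.31) and the phosphofructokinase gene pfkma (log2 0.61 ± 0.17). In 222 mM 2 passed without replicate 1 of 222 mM, 3 without its replicate 3 and 3 without replicate 1 of regular medium. In 130 mM uncut larvae 0 rose and 1 fell (2.63% of all genes passed), and without the libraries apart 3 rose and 4 fell. The plot of pathway genes past the threshold shows these counts for all times.

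**Figure D5:**
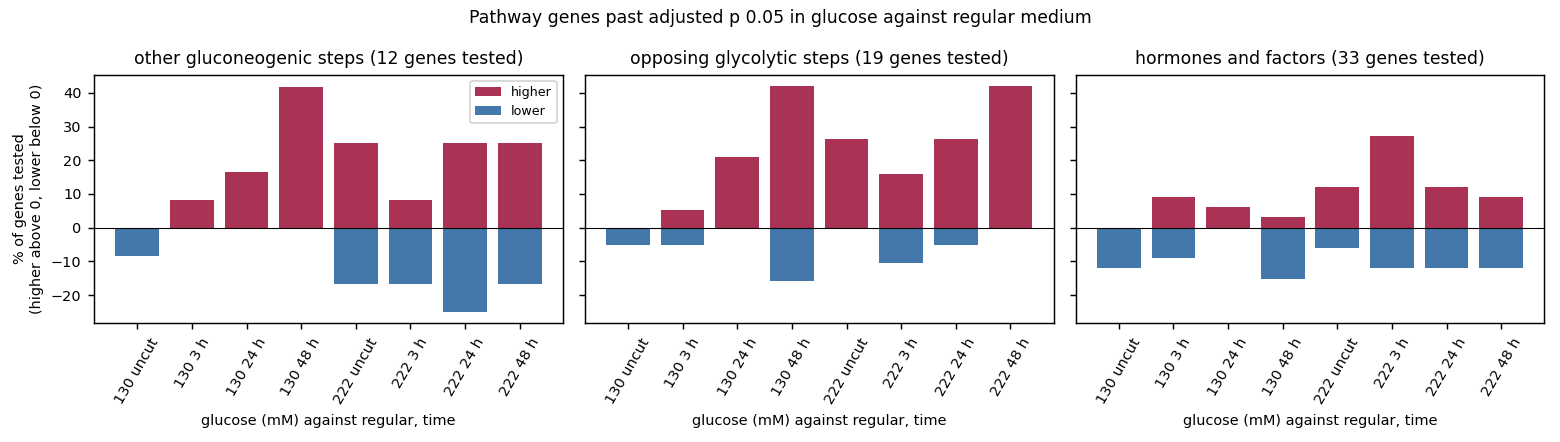
Share of the genes tested in 3 pathway lists (panels) that were higher (above 0) or lower (below 0) in glucose than in regular medium at an adjusted p under 0.05, by glucose level and time (x axis). At 48 h 8 of 19 opposing glycolytic genes were higher in 130 mM and 8 in 222 mM, against 5 and 3 of 12 genes of other gluconeogenic steps.

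Of 33 tested genes for hormones, receptors and transcription factors known to act on gluconeogenesis, 0 rose and 4 fell in 130 mM in uncut larvae, and 4 rose and 2 fell in 222 mM, where 2.63% and 12.6% of all genes passed. The insulin gene ins fell in both (log2 -1.69 ± 0.27 and log2 -1.14 ± 0.26), and the glucagon gene gcga fell in 130 mM (log2 -1.25 ± 0.31), a call lost without 5 of its 6 libraries. Without the libraries apart 5 rose and 9 fell in 130 mM, and 12 and 5 in 222 mM. At 24 h 4 rose and 4 fell in 222 mM, a smaller share than the 34.1% over all genes. The coactivator genes ppargc1a (log2 1.25 ± 0.14) and ppargc1b (log2 0.97 ± 0.15) were higher there, while pck1 and both fbp1 genes were lower. At 48 h 1 rose and 5 fell in 130 mM, and 3 rose and 4 fell in 222 mM, again with ppargc1a (log2 0.72 ± 0.14) and ppargc1b (log2 0.77 ± 0.15) higher. Of all genes 19.9% and 16.5% passed at 48 h. With the libraries apart left out, 8 rose and 5 fell at 24 h in 222 mM, 2 rose and 14 fell at 48 h in 130 mM and 5 rose and 11 fell at 48 h in 222 mM. At 24 h in 222 mM 5 passed without replicate 2 of regular medium. At 48 h in 130 mM 2 passed without replicate 2 of 130 mM, and 3 without its replicate 3 or replicate 3 of regular medium. List medians stood at -0.19 and -0.19 at 48 h, against -0.02 and 0.00 over all genes.

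In human cells PCK2 is known as a target of the amino acid response factor ATF4, and 18 genes of that response were counted beside pck2. At 3 h in 130 mM, where pck2 rose, 13 of 18 rose and 0 fell (median 0.82 against 0.01 over all genes, of which 38.2% passed). They included the asparagine synthetase gene asns, from 11.8, 11.3 and 7.82 CPM uncut to 45.5, 49.5 and 39.8 CPM (log2 2.12 ± 0.28), and sesn2 (log2 1.68 ± 0.22), a stress-induced inhibitor of the growth kinase mTORC1. With single libraries left out 11 to 13 rose. In regular medium 4 rose at 3 h and in 222 mM 1 did (15.1% and 0.895% of all genes passed with all libraries). Without the libraries apart 1 and 8 did. In that setting 26.2% of tests over all genes passed in the 9 comparisons against uncut larvae, and the shares for these 2 comparisons alone are not given here. At 48 h in 130 mM against regular medium, where pck2 was also higher, 2 of 18 rose and 4 fell (median 0.19 against -0.02 over all genes, of which 19.9% passed), and 6 rose and 5 fell when the libraries apart were left out. With all libraries that median lay above 0 while more of the called genes fell than rose. At 48 h in regular medium, where pck2 was lower than in uncut larvae, 2 rose and 1 fell (14.5% of all genes passed), and 3 rose and 6 fell without the libraries apart. In 222 mM against regular medium at 24 h 7 of 18 rose and 2 fell, where 34.1% of all genes passed. Among those that rose was asns (log2 1.99 ± 0.28), while pck2 did not pass there (log2 -0.10 ± 0.30, adjusted p = 0.82). Whether this response bears on pck2 was not tested.

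Markers of tissues that could carry these transcripts were summed per library. Of 21 hepatocyte marker rows 20 reached 1 FPKM, as did all enterocyte, kidney proximal tubule and skeletal muscle markers. Of 6 adipocyte markers 4 did, and plin1 and adipoqb stayed under 1 FPKM in every library. At 48 h, where pck1 fell in both glucose media and both fbp1 genes in 222 mM, the hepatocyte sum was 3704 to 4662 CPM in regular medium, 5368 to 6301 CPM in 130 mM and 4118 to 4376 CPM in 222 mM. The 222 mM and regular libraries overlapped, and 130 mM was higher than both. Of 20 markers 6 rose and 1 fell in 130 mM, and 3 rose and 1 fell in 222 mM, where 19.9% and 16.5% of all genes passed, so the count in 222 mM was near that over all genes. Leaving out the libraries apart, 11 rose and 1 fell in 130 mM and 6 rose and 1 fell in 222 mM. Without replicate 3 of regular medium 4 passed in 130 mM and 2 in 222 mM, where 2 also passed without replicate 3 of 222 mM.

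The adipocyte sum held the 4 markers tested, without plin1 and adipoqb. At 48 h it was 484 to 562 CPM in regular medium, 299 to 338 CPM in 130 mM and 332 to 427 CPM in 222 mM. Both glucose groups lay below regular medium, as pck1 did. Unlike for pck1, they overlapped each other, and the mean was lower in 130 mM (314 CPM) than in 222 mM (372 CPM). Of 4 markers tested 3 fell and 0 rose in 130 mM (median -0.85), and 2 fell and 0 rose in 222 mM (median -0.79), against -0.02 and 0.00 over all genes, of which 19.9% and 16.5% passed. In 130 mM 0 passed without replicate 1 of 130 mM, and 1 without its replicate 2 or replicate 3 of regular medium. Of 15 enterocyte markers 3 fell and 1 rose in 222 mM at 48 h, and of 16 muscle markers 6 and 1, beside the same 16.5% of all genes. With any 1 of the 6 libraries left out 0 to 2 enterocyte and 1 to 5 muscle markers fell. Without the libraries apart 7 and 10 fell. Of 10 kidney markers 2 fell and 1 rose in 222 mM (16.5% of all genes passed), and 5 and 1 without those libraries. In 130 mM at 48 h, where 19.9% of all genes passed, 3 enterocyte markers rose and 1 fell. There 0 muscle markers rose and 2 fell, and 0 kidney markers passed. The enterocyte sum in 130 mM was 3495 to 3996 CPM, above the 2455 to 2912 CPM of regular medium, while pck1 was lower.

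At 24 h in 222 mM, where pck1, fbp1a and fbp1b fell and 34.1% of all genes passed, the hepatocyte sum was 3979 to 4411 CPM, against 5296 to 5949 CPM in regular medium. The groups did not overlap. Of 20 hepatocyte markers 2 rose and 4 fell, and without the libraries apart 3 rose and 8 fell. Without replicate 3 of 222 mM, or replicate 1 or 2 of regular medium, 3 passed. The enterocyte sum was 1722 to 2219.9 CPM, against 3323 to 4052 CPM in regular medium, with 12 of 15 lower and 0 higher. The skeletal muscle sum was 31052 to 37708 CPM, against 56595 to 67934 CPM, with 11 of 16 lower and 1 higher. A list of 13 tested markers of other tissues, among them elavl3, cryaa and krt4, also had a lower sum. It was 10755 to 12294 CPM, against 17566 to 21673 CPM in regular medium, with 6 of 13 lower and 0 higher. Of 10 kidney markers 4 were lower and 1 higher, and 2 passed without replicate 1 of 222 mM. The adipocyte sum went the other way, with 593 to 803 CPM in 222 mM and 389 to 404 CPM in regular medium, and 1 of 4 rose and 1 fell.

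In uncut larvae, where fbp1b fell in both glucose media, the hepatocyte sum was 10490.5, 8596 and 2412 CPM in regular medium, 3767, 2523 and 2653 CPM in 130 mM and 4579, 4983 and 7455 CPM in 222 mM. In regular medium it was lowest in replicate 3, the library with the lowest pck2. In 130 mM 4 of 20 hepatocyte, 5 of 15 enterocyte and 5 of 10 kidney markers fell and 0 rose (2.63% of all genes passed). Without the libraries apart 18, 13 and 7 fell. In that setting 29.4% of tests over all genes passed in the 12 comparisons of media, against 15.6% with all libraries. With single libraries left out 0 to 17 hepatocyte, 2 to 12 enterocyte and 1 to 7 kidney markers fell, with the highest count of each list without replicate 3 of regular medium. In 222 mM 14 of 15 enterocyte markers fell and 1 rose, and 3 of 10 kidney markers fell and 0 rose (12.6% of all genes passed). Of the hepatocyte markers 4 rose and 2 fell there, and without the libraries apart 2 rose and 8 fell.

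At 3 h in 130 mM, where pck1, pck2 and fbp2 rose and 38.2% of all genes passed, the hepatocyte sum was 8546, 6925 and 6264 CPM, above all uncut libraries of that medium. Of the hepatocyte markers 11 of 20 rose and 1 fell (median 0.90). Enterocyte markers rose in 9 of 15 and fell in 0 (median 0.71), and kidney markers rose in 5 of 10 and fell in 0 (median 0.89). Muscle markers rose in 1 of 16 and fell in 0 (median 0.15), and adipocyte markers rose in 1 of 4 and fell in 0 (median -0.07). Of the 13 markers of other tissues 1 rose and 1 fell (median 0.03). The enterocyte sum was 2455 to 2571 CPM uncut and 4914 to 5632 CPM at 3 h, and the kidney sum 539 to 576 CPM and 673 to 781 CPM, both without overlap. The part of cell makeup in the enzyme differences of these paragraphs was not tested.

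Genes whose log2 CPM followed each enzyme most closely over the 36 libraries were listed as a description, since libraries share groups. For pck1 they were smox (r = 0.90), which encodes spermine oxidase, pnp5a (r = 0.89) and adipor2 (r = 0.87), an adiponectin receptor gene. For pck2 they were hadhab (r = 0.94), a subunit of mitochondrial fatty acid oxidation, shmt1 (r = 0.94), a serine hydroxymethyltransferase gene, and afp4 (r = 0.93). For fbp1a they were the ferritin gene fth1b (r = 0.92), scarb2c (r = 0.92) and antxr1a (r = 0.90), and for fbp1b gstt1a (r = 0.87), lgmn (r = 0.86), which encodes the lysosomal protease legumain, and epdl2 (r = 0.86). For fbp2 they were chchd6b (r = 0.85), elovl1b (r = 0.83) and cx32 (r = 0.83). None of the 5 enzymes was among the 3 closest genes of another. Among the 5, r ran from -0.57 between fbp1a and fbp2 to 0.65 between pck2 and fbp2, with 0.57 between fbp1a and fbp1b and 0.40 between pck1 and pck2.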

How the data were processed

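HISAT, StringTie, edgeR and the build GRCz11 are named in the submitters' processing notes. The deposited table holds, for each gene, a count per library, which is a whole number and not normalized, and an FPKM value, which the authors made with StringTie and edgeR, per the series' design text. Which tool made the counts, and with what strand setting, is not given in the sources used here. Counts were tested with edgeR 4.0.16 (R 4.3.3; TMM scaling, robust quasi-likelihood fit, 1 mean per group, all 36 libraries in 1 fit) after the filter on low values, with Benjamini-Hochberg adjustment within each of 24 comparisons. The steps were tested on simulated counts. Standard errors are the size of the log2 fold change over the root of F. Total counts per library differed by less than 1.5 times, and in every group each pair of libraries differed by more than sampling noise. The common biological coefficient of variation was 0.203.

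Alternatives were median-ratio scaling, no filter, DESeq2 1.42.0, limma 3.58.1 on log2 FPKM with a pseudocount of 0.1 or 1, a block for the replicate number, a fit of the compared libraries alone, the criterion of the series text, each library left out and, added later, the 4 libraries apart left out. The 5 genes and the lists were chosen with earlier results of these data known. Up to 4 genes per list and comparison, by smallest adjusted p, and the 3 genes closest to a member by Pearson's r could be named, and 1 such gene is not reported here. Of the list symbols 11 were matched through another symbol and 6 had no row. Same-numbered libraries deviated together (r over 0.1 in all 3 pairs) for uncut larvae and 3 h in 222 mM only (r = 0.174, 0.152 and 0.389 across genes), 1 of 21 comparisons. The main fit paired no libraries, and the replicate number entered only as the block over all groups.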

Additional observations from a re-analysis of the deposited data

Results flagged for a closer look

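Tests of a difference between media in the amputation response passed for 4 gene and media pairs. For pck1 the responses in 222 mM and in regular medium differed (adjusted p = 0.012), with log2 -2.25 ± 0.30 at 48 h in 222 mM and log2 -0.70 ± 0.28 in regular medium. For fbp1a they differed between 222 mM and regular medium (adjusted p = 0.011), with log2 -0.55 ± 0.13 at 24 h in 222 mM and log2 0.31 ± 0.13 in regular medium. The fbp1a responses also differed between 222 mM and 130 mM (adjusted p = 0.013), with log2 -0.12 ± 0.13 at 24 h in 130 mM. For fbp1b the responses in 222 mM and 130 mM differed (adjusted p = 0.028), with log2 -0.53 ± 0.17 at 48 h in 222 mM and log2 0.21 ± 0.17 in 130 mM. The fbp1b call was lost without 6 single libraries, and the other calls held without any single library. In limma on FPKM both fbp1a calls and the fbp1b call were lost. The fbp1a call between 222 mM and regular medium was also lost with only the libraries compared in the fit.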

How the results depend on the processing

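Over 45 settings the single-gene tests gave 2055 values, of which 1872 kept their side of the threshold, 74 passed newly and 109 no longer passed. Among values that passed in the main fit or in the alternative, 0 reversed direction, while some that passed in neither did. The tests of different amputation responses have no direction. The criterion of the series text gave 7 glucose and 5 amputation calls (against 18 and 12). With only the libraries compared in the fit, 9 single-gene tests passed newly and 9 no longer passed. Without the 4 libraries apart there were 29, 23 and 13 (against 18, 12 and 4 response calls), and limma with either pseudocount gave 1 response call. Leaving out single libraries gave 15 to 24 glucose calls, 9 to 14 amputation calls and 3 to 8 response calls, with 8 response calls without replicate 3 of uncut larvae in regular medium and without replicate 1 at 3 h in regular medium. The causes were not tested. Of the called results 11 of 18, 4 of 12 and 3 of 4 passed without each single library of their groups. With the replicate number as a block there were 18, 11 and 4 calls, and the 1 changed call was pck2 at 48 h against uncut larvae in regular medium. In the 1 comparison where same-numbered libraries deviated together, 3 h against uncut larvae in 222 mM, fbp1a was the 1 member called. It kept its call with the block. For fbp2, the low counts limit precision.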

Other observations

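Genes that supply gluconeogenesis with substrates from amino acids, lactate and glycerol, 20 tested, moved in both directions. At 48 h 6 rose and 4 fell in 130 mM against regular medium (list median log2 0.17 against -0.02 over all genes, of which 19.9% passed), and 3 rose and 6 fell in 222 mM (median 0.01 against 0.00, with 16.5% of all genes past the test). The pyruvate dehydrogenase kinase gene pdk2b, whose enzyme holds pyruvate back from oxidation, had 264, 293 and 232 CPM in regular medium, 55.0, 83.6 and 60.6 CPM in 130 mM and 36.1, 71.0 and 33.1 CPM in 222 mM. Both glucose groups lay below regular medium (log2 -1.99 ± 0.43 and log2 -2.49 ± 0.44). The cytosolic aspartate aminotransferase gene got1 had 232, 233 and 234 CPM, 161, 165 and 157 CPM and 159, 149 and 152 CPM in the same order. It fell by less and with little spread (log2 -0.54 ± 0.07 and log2 -0.60 ± 0.07). Both genes passed without any single library. At 3 h in 130 mM 11 of 20 rose and 2 fell against uncut larvae, where 38.2% of all genes passed. Rises included gk5 (log2 1.46 ± 0.25), which is related to glycerol kinase, and gpd1b (log2 1.07 ± 0.21), a glycerol-3-phosphate dehydrogenase gene. With single libraries left out 4 to 7 genes of the list passed at 48 h in 130 mM, 5 to 8 in 222 mM and 11 to 12 at 3 h in 130 mM. With the libraries apart left out, 13, 14 and 15 passed. In that setting 29.4% of tests over all genes passed between media and 26.2% against uncut larvae.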
